A study of Mus musculus with 9 samples.

Results

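Nitric oxide and arginine metabolism was represented by 8 genes of the 27203 genes in the expression table, of which 6 are described: the nitric oxide (NO) synthases Nos1, Nos2 and Nos3, and Ass1, Odc1 and Gch1. The rule lists the genes by name and sets no threshold on their values, and they were chosen with earlier results of these data known. Each was found through its Ensembl identifier in GENCODE M21 (GRCm38), and the values of all its transcript rows were summed. All 6 genes were in the table. Nos1 was too low to be tested and the other 5 were tested.

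NO synthases convert arginine to NO and citrulline, and they need the cofactor tetrahydrobiopterin, whose synthesis starts with GTP cyclohydrolase (Gch1). Argininosuccinate synthase (Ass1) carries citrulline back towards arginine. On the polyamine side of the pathway ornithine decarboxylase (Odc1) turns ornithine into putrescine, the starting point of the polyamines. In the lung, Nos3 is known as the endothelial enzyme that relaxes vessels, Nos2 as the enzyme induced in inflammation and Nos1 as the neuronal enzyme.

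Lung RNA of 9 male C57BL/6 mice aged 6 to 8 weeks was measured, with 3 libraries in each of 3 groups. Mice with ventilator-induced lung injury (VILI) were ventilated for 4 hours at a high tidal volume of 20 ml/kg, with ketamine, xylazine and the muscle relaxant pancuronium, and were killed 0 or 6 hours after ventilation (VILI 0 hours and VILI 6 hours). Control mice were intubated and not ventilated. No group ventilated at a low tidal volume was among these libraries, so ventilation as such and high stretch cannot be told apart. The same control mice served both times, and the labels give them no time after the procedure. Time since the procedure and injury therefore cannot be told apart at VILI 6 hours. The study also reports hypoventilation of the control mice from blood gases. Values are FPKM, mapped fragments scaled by transcript length and library size. A gene is called higher or lower below where its unadjusted limma P was under 0.05, the cutoff of the study, and the p-values printed are Benjamini-Hochberg adjusted over all genes tested. Because whole lung was sequenced, fewer cells of a type and less RNA per cell cannot be told apart.

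The 9 columns summed to between 366360.3 and 388459 FPKM, and without counts the number of reads behind a value is unknown. Alveolar type 2 cell markers summed to at least 13018 FPKM in every library. The 8 liver markers summed to between 0.393 and 0.908 FPKM, and of these only Apoc3 was listed at 0 throughout. All 8 neutrophil markers were higher than control at both times in limma, with sums of 48.5 to 56.8 FPKM in control, 560 to 1024 at VILI 0 hours and 467 to 1940 at VILI 6 hours. VILI 6 hours replicate 1 stood apart in being closer to control than to its own group. Its mean Spearman rho over genes was 0.954 with the other libraries of its group and 0.978 with control. Its erythroid markers summed to 489 FPKM against at least 3227 in control, and its airway markers to 41932 FPKM against at most 33246 in the libraries of the other groups. VILI 6 hours replicate 3 had a mean rho of 0.958 with its group, nearly as low, and of 0.942 with control, the lowest of all libraries. The fold changes of the 5 tested genes at VILI 6 hours are also given without replicate 1. So are those of the named pathway genes whose adjusted call or size turned on replicate 1.

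In control lung Odc1 had the highest level of the 6 genes, 21.8 ± 0.732 FPKM (mean ± SD, n = 3). Ass1 (6.13 ± 0.587) and Nos3 (6.02 ± 0.513) came next with overlapping ranges, followed by Gch1 (3.94 ± 0.323) and Nos2 (1.52 ± 0.144). Nos1 was lowest at 0.0214 ± 0.00181 FPKM. At VILI 0 hours the ranges of Ass1 (4.41 ± 0.360), Gch1 (4.004 ± 0.420) and Nos3 (3.90 ± 0.331) overlapped from one to the next below Odc1 (21.2 ± 0.181). At VILI 6 hours Odc1 was still highest (30.5 ± 6.01), Nos3 stood second at 7.53 ± 1.64 FPKM, and the ranges of Nos3, Ass1 and Gch1 overlapped from each to the next. Nos2 and Nos1 were below the other genes, without overlap, in all 3 groups.

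**Figure D1:**
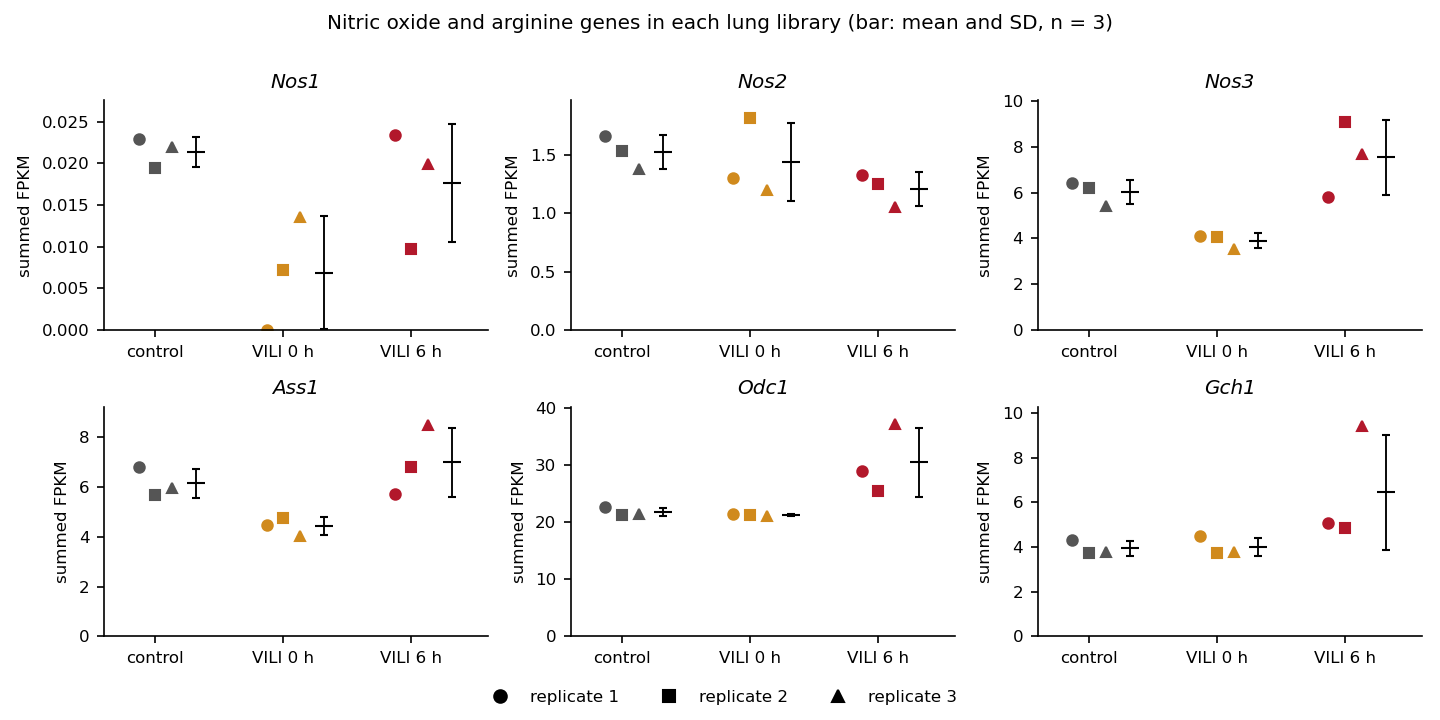
Summed FPKM (y axes, linear and from 0) of the 6 genes in each lung library, by group (x axes). Circles, squares and triangles are replicates 1, 2 and 3, and the bar beside them is the mean with the SD (n = 3). Nos3 lay between 5.43 and 6.40 FPKM in control, between 3.52 and 4.11 at VILI 0 hours and between 5.82 and 9.09 at VILI 6 hours.

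Nos3, the endothelial NO synthase, was lower right after ventilation than in control and higher 6 hours later than right after ventilation. The gene lies at chr5:24364810-24384474 on the plus strand. Nos3 was 6.40, 6.21 and 5.43 FPKM in control, 4.11, 4.08 and 3.52 at VILI 0 hours, and 5.82, 9.09 and 7.69 at VILI 6 hours. The VILI 0 hours libraries lay below all others, and control and VILI 6 hours overlapped. Against control the log2 fold change at VILI 0 hours was -0.61 (SE 0.173, 95% interval -1.0 to -0.22, limma adjusted p = 0.138; 0.0260 on leaving out VILI 6 hours replicate 1, which enters this comparison through the shared spread). From VILI 0 hours to VILI 6 hours it was 0.91 (SE 0.173, 0.52 to 1.30, adjusted p = 0.155), and without VILI 6 hours replicate 1 it was 1.08 (adjusted p = 0.0150). In VILI 6 hours vs control Nos3 did not pass (0.30, interval -0.09 to 0.69, adjusted p = 0.344), but without VILI 6 hours replicate 1 the value was 0.47 with an adjusted p of 0.0421, the lowest of a range up to 0.677 over the 18 alternatives tried. The highest of these came without VILI 6 hours replicate 2, where the value was 0.15.

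Both rows of Nos3 had their lowest values at VILI 0 hours. The main row was 5.15 to 5.98 FPKM in control, 3.27 to 4.08 at VILI 0 hours and 5.40 to 8.45 at VILI 6 hours. The minor row was 0.279 to 0.524, 0 to 0.244 and 0.419 to 0.638 FPKM. Nos3 overlaps Atg9b on the opposite strand, which was at most 0.136 FPKM in any library. The sources differ on the library kit, so the use of strand is not settled. Endothelial markers include Cdh5, the cadherin of endothelial junctions. Their sums overlapped between the groups, at 924 to 970 FPKM in control, 939 to 1048 at VILI 0 hours and 851 to 985 at VILI 6 hours. Of the 8 markers 1 was higher and 1 lower in VILI 0 hours vs control, and 3 were lower in VILI 6 hours vs control. The part of endothelial cells in the Nos3 levels was not tested.

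Nos2, the inducible NO synthase, did not pass the test in any of the 3 comparisons. It lies at chr11:78920787-78960254 on the plus strand. Nos2 was 1.66, 1.53 and 1.38 FPKM in control, 1.30, 1.81 and 1.20 at VILI 0 hours, and 1.33, 1.25 and 1.05 at VILI 6 hours. The VILI 6 hours libraries were all below control, and the difference did not pass the test. The log2 fold change was -0.10 (interval -0.58 to 0.39, adjusted p = 0.864) at VILI 0 hours, a sign that flipped to 0.018 when each library was centred on its median, and -0.32 (-0.80 to 0.17, adjusted p = 0.416) at VILI 6 hours. Without VILI 6 hours replicate 1 the latter was -0.38 (adjusted p = 0.246). Between the VILI groups the log2 fold change was -0.22, and with 1 library left out it lay between -0.33 (VILI 0 hours replicate 3 omitted) and -0.050 (VILI 0 hours replicate 2 omitted), with an adjusted p of at least 0.482. It was -0.28 without VILI 6 hours replicate 1 (limma adjusted p = 0.482). In the same libraries the summed monocyte and macrophage markers overlapped between groups, at 2993 to 3640 FPKM in control, 2681 to 3553 at VILI 0 hours and 2352 to 3944 at VILI 6 hours, while 4 of the 8 markers were higher than control at VILI 6 hours and 0 at VILI 0 hours.

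Nos1 was near 0 in whole lung. It lies at chr5:117781032-117958840 on the plus strand. Of its 4 rows 3 were listed at 0 in every library, and the last was 0.0229, 0.0194 and 0.0219 FPKM in control, 0, 0.00717 and 0.0136 at VILI 0 hours, and 0.0234, 0.00977 and 0.0199 at VILI 6 hours. These values were below the minimum mean of 0.1 FPKM, so no fold change is given. Nos3 made up 79.2% to 80.0% of the summed NO synthase FPKM in control, 69.1% to 75.9% at VILI 0 hours and 81.2% to 87.9% at VILI 6 hours, with no overlap between groups. The summed FPKM of the NO synthases was 6.83 to 8.09 in control, 4.73 to 5.90 at VILI 0 hours and 7.17 to 10.3 at VILI 6 hours, so the VILI 0 hours libraries were below all others. The share and the sum are built from the Nos3 and Nos2 values given here and are no separate evidence.

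**Figure D2:**
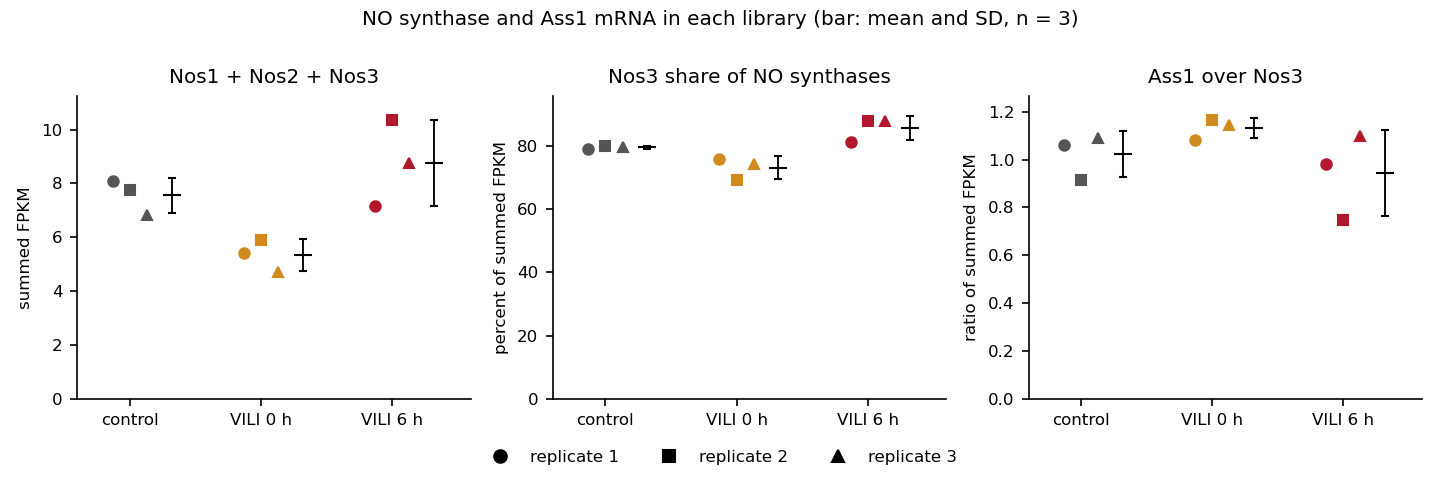
Summed FPKM of the NO synthases, the share of Nos3 in that sum (percent) and the ratio of Ass1 to Nos3 (y axes, linear and from 0) in each library, by group (x axes), with the mean and SD (n = 3). The sum was 4.73 to 5.90 FPKM at VILI 0 hours against at least 6.83 elsewhere, while the ratio of Ass1 to Nos3 overlapped between the groups, at 0.914 to 1.09, 1.08 to 1.17 and 0.746 to 1.10.

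Ass1, which with argininosuccinate lyase rebuilds arginine from citrulline, was lower at VILI 0 hours and higher at VILI 6 hours than at VILI 0 hours, as Nos3 was. It lies at chr2:31470207-31520672 on the plus strand. Ass1 was 6.80, 5.67 and 5.93 FPKM in control, 4.45, 4.75 and 4.03 at VILI 0 hours, and 5.72, 6.78 and 8.47 at VILI 6 hours. As with Nos3, the VILI 0 hours libraries were below all others. The log2 fold change was -0.47 in VILI 0 hours vs control (SE 0.163, interval -0.83 to -0.10, adjusted p = 0.209) and 0.64 from VILI 0 hours to VILI 6 hours (0.27 to 1.003, adjusted p = 0.275). In VILI 6 hours vs control Ass1 did not pass (0.17, interval -0.19 to 0.54, adjusted p = 0.561). Without VILI 6 hours replicate 1 the value between the VILI groups was 0.77 (adjusted p = 0.0424) and that against control 0.30 (adjusted p = 0.164), while on leaving out VILI 6 hours replicate 3 they were 0.49 (adjusted p = 0.391) and 0.026 (adjusted p = 0.956). The lower level at VILI 0 hours no longer passed when each library was centred on its median (-0.35), without control replicate 1 (-0.39) or without VILI 0 hours replicate 3 (-0.40). Over the 9 libraries Pearson's r between Nos3 and Ass1 on the log2 scale was 0.906, and the lowest r with 1 library left out was 0.865 (n = 8). Both genes were scaled to the same libraries, and this correlation is a description only. The summed erythroid markers ran the other way, at 3227 to 4186 FPKM in control, 4921 to 5421 at VILI 0 hours and 489 to 3869 at VILI 6 hours, with 0 of 8 called against control at either time and 4 of 8 lower at VILI 6 hours than at VILI 0 hours. Their part in the Nos3 and Ass1 levels was not tested.

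Odc1 and Gch1 did not pass the test in VILI 0 hours vs control and were higher 6 hours later. Odc1, the first and rate-limiting enzyme of polyamine synthesis, lies at chr12:17544794-17551505 on the plus strand. It was 22.6, 21.3 and 21.5 FPKM in control, 21.4, 21.2 and 21.02 at VILI 0 hours, and 28.9, 25.4 and 37.1 at VILI 6 hours. All 3 VILI 6 hours libraries were above the other 6. The log2 fold change of Odc1 was -0.04 (interval -0.33 to 0.25) in VILI 0 hours vs control, with the sign flipping to 0.075 under median centring. At VILI 6 hours it was 0.46 against control (SE 0.131, interval 0.17 to 0.76, adjusted p = 0.118) and 0.50 against VILI 0 hours (0.21 to 0.80, adjusted p = 0.280). Without VILI 6 hours replicate 1 the value against control was 0.49, with an adjusted p of 0.0381, the lowest of a range up to 0.322 over the alternatives, and the value against VILI 0 hours was 0.53 (adjusted p = 0.0888). On leaving out VILI 6 hours replicate 3 these were 0.31 and 0.35 (adjusted p = 0.207 and 0.353).

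Gch1, which limits the supply of tetrahydrobiopterin, lies at chr14:47153895-47189413 on the minus strand. It was 4.31, 3.73 and 3.79 FPKM in control, 4.49, 3.73 and 3.79 at VILI 0 hours, and 5.07, 4.85 and 9.41 at VILI 6 hours. The VILI 6 hours libraries were again all above the others, with replicate 3 far above its group. In VILI 0 hours vs control the log2 fold change of Gch1 was 0.02 (interval -0.51 to 0.55). At VILI 6 hours it was 0.63 against control (SE 0.238, interval 0.096 to 1.16, adjusted p = 0.190) and 0.61 against VILI 0 hours (0.076 to 1.14, adjusted p = 0.443). Without VILI 6 hours replicate 3 these values were 0.33 and 0.31 and neither passed. The call against control was lost in 3 of 18 alternatives, the others being without control replicate 2 (0.59) or 3 (0.60). That between the VILI groups was lost in 5 of 18, the others being median centring (0.62), only the 6 libraries of the comparison (0.61) and leaving out VILI 0 hours replicate 2 (0.56) or 3 (0.57). On leaving out VILI 6 hours replicate 1 they were 0.77 (adjusted p = 0.0541) and 0.75 (adjusted p = 0.134). Over the 9 libraries r between Odc1 and Gch1 was 0.955, and 0.863 without VILI 6 hours replicate 3 (n = 8). The summed neutrophil markers were highest in the same replicate, at 1940 FPKM against 467 and 994 in replicates 1 and 2. Their part in the Odc1 and Gch1 levels was not tested.

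Because Odc1 and Gch1 had the most alike profiles of all pairs among the tested genes, their promoters are shown: the 250 bases before the RefSeq start of each gene (GRCm38.p6), 5′ to 3′ on the strand of the gene. Entries were given for 4 of the 6 genes. The capitals mark matches, on either strand, to the core promoter element TATAA, to TGACG, the core of the cAMP response element, to the upstream promoter element CCAAT and to the GC box GGGCGG. The E-box CACGTG was searched too and was in neither window. The Odc1 window is chr12:17544623-17544872 on the plus strand, and the Gch1 window is chr14:47189414-47189663 on the minus strand.
Odc1: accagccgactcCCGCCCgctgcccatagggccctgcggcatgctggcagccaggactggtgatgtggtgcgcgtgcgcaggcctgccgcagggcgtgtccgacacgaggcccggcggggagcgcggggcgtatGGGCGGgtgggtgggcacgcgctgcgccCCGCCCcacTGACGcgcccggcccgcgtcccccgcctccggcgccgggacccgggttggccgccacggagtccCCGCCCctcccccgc
Gch1: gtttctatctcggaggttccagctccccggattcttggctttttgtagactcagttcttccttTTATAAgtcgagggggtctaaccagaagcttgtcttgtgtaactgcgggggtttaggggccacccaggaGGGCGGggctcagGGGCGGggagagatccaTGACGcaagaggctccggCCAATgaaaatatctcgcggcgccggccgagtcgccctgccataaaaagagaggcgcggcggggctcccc

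Both windows hold 1 TGACG, beginning 79 bases before the start in Odc1 and 88 bases before it in Gch1, a motif found in 17.8% of the 32851 promoter windows of the same length. GGGCGG, found in 32.7% of them, occurs 4 times in Odc1 and 2 times in Gch1. The Gch1 window alone of the pair has CCAAT (33.8% of all windows), 70 bases before the start, and TATAA (22.8%), whose 2 matches, 1 on each strand, overlap with an offset of 1 base and begin 187 and 186 bases before the start. The RefSeq start of Odc1 lies within the gene as GENCODE M21 places it, so the last 79 bases of its window, which hold the TGACG and 1 of the 4 GGGCGG, are inside that gene, while 0 bases of the Gch1 window are inside Gch1. The matches describe these letters and are not evidence of bound factors.

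Counted over the 5 tested genes, 0 were higher and 2 were lower in VILI 0 hours vs control at the unadjusted threshold, beside 6.81% higher and 9.35% lower of the 19378 genes tested. In VILI 6 hours vs control 2 were higher and 0 lower, beside 8.17% and 12.2%. From VILI 0 hours to VILI 6 hours 4 were higher and 0 lower, beside 5.06% and 4.94%. After Benjamini-Hochberg adjustment in limma 0 of the 5 passed in any comparison, where 0.284%, 0.702% and 0% of all genes did. The libraries at VILI 0 hours did not overlap control for 0 higher and 2 lower genes, beside 12% and 21.6% of all genes tested (33.5% in either direction). At VILI 6 hours they did not overlap control for 2 higher genes and 1 lower, beside 9.64% and 15% (24.6% in either direction). The VILI groups did not overlap each other for 4 genes higher and 0 lower at VILI 6 hours, beside 6.25% and 6.28% (12.5% in either direction). An exact two-sided permutation test of 3 against 3 libraries gave p = 0.1 for each of these, the smallest it allows. The median log2 fold change of the 5 genes was -0.10, 0.30 and 0.61 in the 3 comparisons, beside -0.07, -0.09 and -0.02 over all genes. Both comparisons against control share the control libraries.

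**Figure D3:**
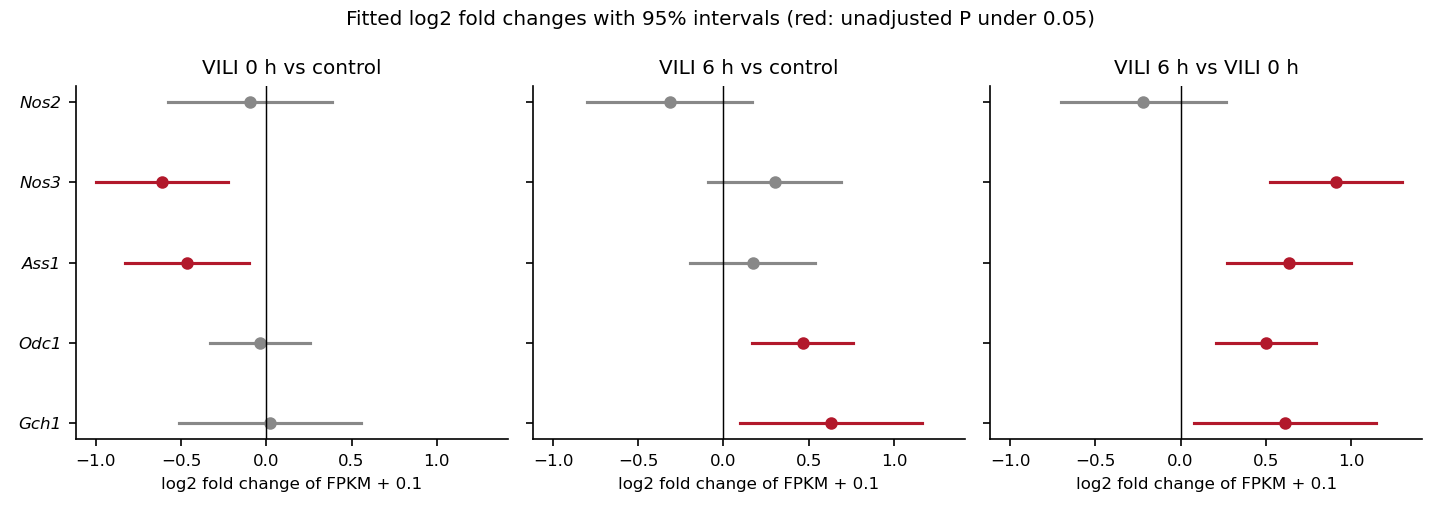
Fitted log2 fold change of FPKM + 0.1 (x axes) with its 95% interval for the 5 tested genes (rows) in each of the 3 comparisons. Red marks an unadjusted limma P under 0.05. Nos3 and Ass1 are at -0.61 and -0.47 in VILI 0 hours vs control, and Nos3, Ass1, Odc1 and Gch1 are to the right of 0 between the VILI groups.

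The surrounding pathway was described with 68 further genes in 6 lists, of which 67 were in the table and 62 were tested. In VILI 0 hours vs control 2 were higher and 8 lower (16.1%, beside 16.2% of all genes in either direction). In VILI 6 hours vs control 8 were higher and 4 lower (19.4%, beside 20.4%), and from VILI 0 hours to VILI 6 hours 6 were higher and 0 lower (9.68%, beside 10%). The shares called were near those of all genes, and 0 of the 62 passed after adjustment in limma. Adjusted calls depended on the libraries fitted. With only the 6 libraries of the comparison 8 of the pathway genes passed after adjustment at VILI 0 hours, where 1597 of all genes did. Without VILI 6 hours replicate 1 the counts at the unadjusted threshold were 17, 29 and 22, where 4495, 7540 and 4353 of the 19395 genes tested were called, and 7, 21 and 2 passed after adjustment, where 1344, 4526 and 362 of all genes did. The calls thus rose over the whole table. In VILI 0 hours vs control that fit left the fold changes as they were and gave named genes an adjusted p of 0.00299 for Pde5a, 0.00949 for Ddah1, 0.0295 for Slc25a15, 0.0341 for Ddah2, 0.0343 for Gucy1a2 and 0.0365 for Slc3a2.

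Among 10 tested genes of arginine supply 1 was higher and 1 lower at VILI 0 hours against control, beside 6.81% and 9.35% of all genes. At VILI 6 hours 3 were higher and 1 lower, beside 8.17% and 12.2%. So few calls give the list no direction. Slc3a2, the heavy chain that carries amino acid transporters to the membrane, was 60.1 to 65.5 FPKM in control, 75.4 to 114 at VILI 0 hours and 78.8 to 132 at VILI 6 hours, where it stood 0.60 and 0.83 above control on the log2 scale (adjusted p = 0.208 and 0.0958). The first call was lost without VILI 0 hours replicate 1 (0.45), and without VILI 6 hours replicate 1 the second value was 1.07 (adjusted p = 0.00287). Slc7a6, a light chain that exchanges arginine with this partner, was higher at VILI 6 hours than in control by a log2 of 1.08 (adjusted p = 0.142), and of 1.54 without VILI 6 hours replicate 1 (adjusted p = 0.00103). Slc7a1, the cationic amino acid transporter CAT1, was higher at VILI 6 hours than in control (0.64, adjusted p = 0.206), where it lay between 3.67 and 4.28 FPKM, below all VILI 6 hours libraries. It was also higher at VILI 6 hours than at VILI 0 hours (0.61, adjusted p = 0.47). The VILI groups overlapped, at 3.12 to 6.11 FPKM at VILI 0 hours and 5.37 to 7.75 at VILI 6 hours, and this second call was lost in 10 of 18 alternatives, among them leaving out any control library, VILI 0 hours replicate 2 (0.43) or 3 (0.49), or VILI 6 hours replicate 2 (0.67) or 3 (0.44). Slc25a15, which moves ornithine into mitochondria, was lower at both times, by -0.61 (adjusted p = 0.0991) and -0.41 (adjusted p = 0.175). The call at VILI 6 hours was lost with median centring (-0.28) and on leaving out control replicate 1 (-0.37) or VILI 6 hours replicate 3 (-0.31), and the value was -0.48 without VILI 6 hours replicate 1 (adjusted p = 0.0434).

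Of 11 tested genes that act on NO synthases 3 were lower at VILI 0 hours (27.3%, beside 9.35% of all genes) and 1 at VILI 6 hours (9.09%, beside 12.2%), with 0 higher at either time. These counts are too small to give the list a direction. Ddah1 and Ddah2 break down asymmetric dimethylarginine, an inhibitor of NO synthases. Ddah1 was 10.8 to 10.9 FPKM in control and 4.39 to 6.79 at VILI 0 hours (log2 fold change -0.99, adjusted p = 0.123). Ddah2 was 29.2 to 32.05 FPKM in control and 15.4 to 20.8 at VILI 0 hours (-0.71, adjusted p = 0.0865), and it was higher at VILI 6 hours than at VILI 0 hours (0.50, adjusted p = 0.361). Nos1ap, the adaptor of Nos1, was lower at VILI 0 hours (-0.43, adjusted p = 0.276) and Nostrin, which traffics Nos3, at VILI 6 hours (-0.33, adjusted p = 0.168). The call of Nos1ap was lost in 8 of 18 alternatives, including median centring (-0.31) and leaving out control replicate 1 (-0.35), 2 (-0.48) or 3 (-0.45), VILI 0 hours replicate 2 (-0.37) or 3 (-0.34), or VILI 6 hours replicate 2 (-0.43). That of Nostrin was lost with median centring (-0.20) and without control replicate 2 (-0.28) or 3 (-0.31) or VILI 6 hours replicate 2 (-0.26).

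Downstream of NO, 3 of 10 tested genes of the cGMP signal were lower and 0 higher at VILI 0 hours against control, beside 9.35% and 6.81% of all genes. At VILI 6 hours 2 were lower and 1 higher, beside 12.2% and 8.17%. These counts are too small to give the list a direction. Pde5a, the phosphodiesterase that degrades cGMP, was 75.1 to 82.5 FPKM in control, 41.4 to 43.4 at VILI 0 hours and 27.9 to 65.1 at VILI 6 hours. Against control this was a log2 difference of -0.92 and then of -0.97 (adjusted p = 0.121 and 0.0978), and without VILI 6 hours replicate 1 the latter was -1.31 (adjusted p = 5.36e-04). Of the subunits of soluble guanylyl cyclase, the NO receptor, Gucy1b1 was lower at both times, by -0.38 (adjusted p = 0.15, the call lost with median centring at -0.26) and -0.51 (adjusted p = 0.0702; 0.0160 on leaving out VILI 6 hours replicate 1). Gucy1a2 was lower at VILI 0 hours (-0.47, adjusted p = 0.0953) and did not pass at VILI 6 hours (-0.19, adjusted p = 0.340). Gucy1a1 passed at neither time, with -0.18 (adjusted p = 0.537) and -0.29 (adjusted p = 0.249) from a control mean of 77.2 FPKM. Vasp, an actin regulator phosphorylated by the cGMP-dependent kinase, was higher in VILI 6 hours vs control (0.38, adjusted p = 0.124; 0.0466 on leaving out VILI 6 hours replicate 1), and Gucy1a2 was higher at VILI 6 hours than at VILI 0 hours (0.28, adjusted p = 0.458), a call lost in 8 of 18 alternatives, including leaving out any control library (0.28 each time), VILI 0 hours replicate 1 (0.19) or 2 (0.29), or VILI 6 hours replicate 2 (0.26) or 3 (0.27). The summed fibroblast markers were also below control at both times, without overlap, at 1478 to 1587 FPKM in control, 1185 to 1390 at VILI 0 hours and 848 to 1243 at VILI 6 hours. Of these 8 markers 1 was higher and 2 were lower at VILI 0 hours, and 0 were higher and 4 lower at VILI 6 hours. Smooth muscle markers summed to 255 to 327, 282 to 434 and 268 to 433 FPKM in the same groups, which overlapped, with 2 of 8 higher at VILI 0 hours, 1 higher at VILI 6 hours and 0 lower at either time. The part of either list in the lower cGMP genes was not tested.

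On the polyamine side 1 of 16 tested genes was higher at VILI 0 hours (6.25%, beside 6.81% of all genes) and 3 at VILI 6 hours (18.8%, beside 8.17%). At either time 0 were lower, beside 9.35% and 12.2% of all genes. The calls are too few to read a direction from. Sat1, which acetylates polyamines for breakdown and export, was 83.2 to 97.4 FPKM in control and 111 to 127 at VILI 0 hours (log2 fold change 0.44, adjusted p = 0.285). The call was lost in 9 of 18 alternatives, including leaving out control replicate 1 (0.40) or 2 (0.41), any VILI 0 hours library (0.39 to 0.49) or VILI 6 hours replicate 2 (0.44). Called at VILI 6 hours were Eif5a, the translation factor that carries the spermidine-derived hypusine (0.36, adjusted p = 0.163), spermine oxidase Smox (0.59, adjusted p = 0.176) and the polyamine transporter Atp13a3 (0.28, adjusted p = 0.217). The direction of Smox rested on summing its rows, since its highest row alone gave -0.83 and did not pass. With the highest row Eif5a was 1.22 and did not pass, and Atp13a3 was 0.69. The calls of Eif5a and Smox were also lost without control replicate 3 (0.29 and 0.55) or VILI 6 hours replicate 3 (0.28 and 0.34), and that of Atp13a3 was lost in 6 of 18 alternatives, including leaving out control replicate 1 (0.23) or 3 (0.28) or VILI 6 hours replicate 2 (0.22) or 3 (0.23). On leaving out VILI 6 hours replicate 1, Smox and Atp13a3 were 0.77 and 0.39 (adjusted p = 0.0239 and 0.0219). Eif5a was also higher at VILI 6 hours than at VILI 0 hours (0.43, adjusted p = 0.316), and its highest row gave 1.15 and did not pass.

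The other routes held few calls. Of 8 tested genes of proline and creatine synthesis, Aldh18a1, the first enzyme from glutamate to proline, was higher in VILI 6 hours vs control (0.51, adjusted p = 0.167) and vs VILI 0 hours (0.42, adjusted p = 0.472). With its highest row these values were 0.20 and 0.039 and neither passed. The first call was also lost without control replicate 3 (0.43), and the second in 8 of 18 alternatives, including leaving out control replicate 1 or 2 (0.42 each time), VILI 0 hours replicate 1 (0.45), 2 (0.47) or 3 (0.34), or VILI 6 hours replicate 1 (0.26). Of 7 tested genes of tetrahydrobiopterin synthesis and recycling, 1 was lower at VILI 0 hours (14.3%, beside 9.35% of all genes) and 0 passed at VILI 6 hours against control. The gene was Gchfr, the feedback regulator of GTP cyclohydrolase, with a log2 fold change of -0.78 (adjusted p = 0.197), named after its value was seen because its mean was under 1 FPKM. It was also the 1 gene of this list that was higher at VILI 6 hours than at VILI 0 hours (0.69, adjusted p = 0.438). With a pseudocount of 1 these values were -0.33 and 0.28. The first call was lost without control replicate 3 (-0.67) or VILI 0 hours replicate 2 (-0.70), and the second with only the 6 libraries of the comparison and without VILI 0 hours replicate 1 (0.65) or 2 (0.61) or VILI 6 hours replicate 2 (0.56).

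**Figure D4:**
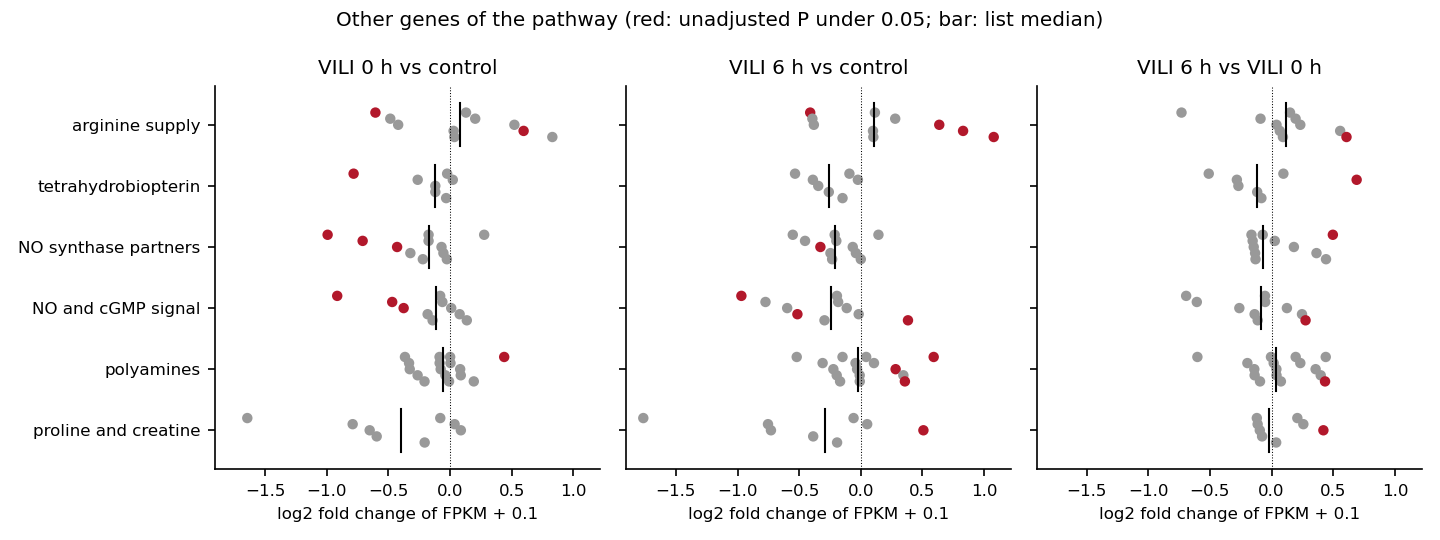
Log2 fold change of FPKM + 0.1 (x axes) of the 62 further pathway genes, 1 point per gene, by list (rows), in the 3 comparisons. Red marks an unadjusted limma P under 0.05 and the bar is the median of the list. Of the red points 8 of 10 are left of 0 in VILI 0 hours vs control and 6 of 6 are right of 0 between the VILI groups. Of the calls over all genes 42.1% and 50.6% were higher in these 2 comparisons.

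Of 14107 genes compared over the 9 libraries, those with the profile most like Odc1 by Pearson's r on the log2 scale were Mvp (0.994), Elf3 (0.984) and St14 (0.977), and those nearest to Gch1 were Hs6st1 (0.984), Tnfrsf9 (0.978) and Ccl17 (0.973). For Nos3 they were Efna5 (0.963), Atp8b1 (0.960) and Ctif (0.951), and for Ass1 Sin3a (0.962), Bicc1 (0.962) and Gm43428 (0.956). Nos2 was nearest to 0610010K14Rik (0.954), Gdf10 (0.949) and Ppt1 (0.928). These are the highest of many correlations over 9 libraries that share their group structure, and they are descriptions.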

How the data were processed

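The authors depleted total lung RNA of rRNA, aligned reads with TopHat2 2.0.9 and Bowtie2 2.0.6 (GRCm38, per the submitters' processing notes), used Scripture and Cufflinks for transcript assembly and Cuffdiff 2.1.1 for FPKM. The deposited FPKM table has 60108 transcript rows. Of 23713 Ensembl gene identifiers 23503 matched GENCODE M21. Rows were summed per gene. The kit named in the sample records and that of the study's methods differ, and only the latter is directional. Groups came from the sample titles.

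The 19378 genes with a mean of at least 0.1 FPKM over the 9 libraries entered 1 linear model per gene of log2(FPKM + 0.1) on group, fitted by limma (version 3.58.1, R 4.3.3) with a mean-variance trend in eBayes, from which the 3 comparisons were taken. This scale understates changes of low genes. Each limma P compares a difference between groups with the spread between mice within groups, pooled over the 3 groups and moderated across genes by eBayes. Adjustment was Benjamini-Hochberg over all genes tested. Single values were also compared by exact permutation. The limma step was tested on simulated data.

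Of the 8 members 6 are named and 2 are not reported here. From each of 6 pathway lists up to 3 genes per comparison are named, by the lowest P among those under 0.05 with a mean of at least 1 FPKM, and for each member the 3 genes of highest r. Gchfr, Gucy1a1 and the VILI 6 hours vs control values of Slc7a1 and Gucy1a2 are given outside this rule. Members and lists were chosen with earlier results of these data known. Of 13 marker lists of 8 genes those not given with the results were summed too. Alveolar macrophage markers summed to 179 to 242 FPKM in control, 294 to 373 at VILI 0 hours and 197 to 581 at VILI 6 hours, and T and B cell markers to 45.2 to 61.5, 27.3 to 63.1 and 19.3 to 40.1. The sums of alveolar type 1 and cardiac muscle markers overlapped between groups. Alternatives were pseudocounts of 0.01 and 1, a minimum mean of 1 FPKM, no minimum, the highest row per gene in place of the sum, centring each library on its median, no trend in eBayes, fits of the 6 libraries of a comparison alone, the replicate number as a block, and leaving out each library. Python 3.11.15, pandas 2.3.3, numpy 2.4.6, scipy 1.17.1 and matplotlib 3.10.9 were used.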

Additional observations from a re-analysis of the deposited data

Results flagged for a closer look

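For 4 genes the change from control differed between the times after ventilation, as tested by the difference between the VILI groups in limma (unadjusted P under 0.05). The log2 fold change from VILI 0 hours to VILI 6 hours was 0.91 for Nos3, 0.64 for Ass1, 0.50 for Odc1 and 0.61 for Gch1. All 3 VILI 6 hours libraries lay above all 3 VILI 0 hours libraries for each of these genes. Over all genes tested 5.06% were called higher between the VILI groups and 6.25% were higher without overlap. The call of Gch1 was lost in 5 of 18 alternatives. None of the 4 had an adjusted p under 0.05.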

How the results depend on the processing

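Over 18 alternatives, those that left out a library included, the number of members called at the unadjusted threshold stayed within 1.5 times of 4 between the VILI groups. At VILI 0 hours it was 1 instead of 2 with median centring, and 1 to 2 with 1 library left out, 1 without control replicate 1 or VILI 0 hours replicate 3, where the call of Ass1 was lost. At VILI 6 hours it was 1 to 3 instead of 2 with 1 library left out, 3 without VILI 6 hours replicate 1 and 1 without control replicate 2 or 3 or VILI 6 hours replicate 3. The adjusted calls moved. At VILI 0 hours 1 member (Nos3) passed instead of 0 with only the 6 libraries compared, and 0 to 1 with 1 library left out, Nos3 without VILI 6 hours replicate 1. With 1 library left out, 0 to 2 passed at VILI 6 hours against control and 0 to 2 between the VILI groups, all without VILI 6 hours replicate 1: Nos3 and Odc1, and Nos3 and Ass1. The further pathway genes called numbered 10, 12 and 6. With only the 6 libraries compared they were 18 at VILI 0 hours and 2 between the VILI groups, where 5094 and 1210 of all 19378 genes were called instead of 3130 and 1938. With 1 library left out they ranged from 8 to 17, from 6 to 29 and from 2 to 22, the highest without VILI 6 hours replicate 1 each time, while calls over all genes ranged from 1978 to 4495, from 2540 to 7540 and from 1406 to 4353. At VILI 6 hours they were 6 without control replicate 3 and 7 with VILI 6 hours replicate 3 removed, and between the VILI groups 3 without control replicate 1 or 2 and 2 without VILI 0 hours replicate 2. After adjustment 8 pathway genes passed instead of 0 at VILI 0 hours with only the 6 libraries, and with 1 library left out 0 to 7, 0 to 21 and 0 to 2 passed in the 3 comparisons, the highest without VILI 6 hours replicate 1. The cause was not tested.

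Small differences that changed sign at VILI 0 hours against control were Nos2, to 0.018 with median centring and 0.011 with the highest row, and Odc1, to 0.075 with median centring. With 1 library left out Nos2 ranged from -0.27 to 0.016, with the positive value without VILI 0 hours replicate 3, and Gch1 from -0.063 to 0.085, negative without control replicate 2 or 3 or VILI 0 hours replicate 1. Smox at VILI 6 hours became -0.83 with its highest row. Median centring raised log2 fold changes by 0.115 and 0.127 against control and moved the share of higher calls over all genes from 42.1% to 61.2% and from 40.1% to 58.1%. The members' higher and lower calls went from 0 and 2 to 0 and 1 at VILI 0 hours, stayed at 2 and 0 at VILI 6 hours, and went from 4 and 0 to 3 and 0 between the VILI groups.

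Groups share replicate numbers, and deviations of same-numbered libraries from their group means correlated by -0.221 to 0.0175. With 3 libraries per group these correlations cannot decide whether the numbers pair the mice. With the replicate block 2, 2 and 4 members were called and 0 had an adjusted p under 0.05, and the further pathway genes numbered 9, 13 and 7, with the call of Nos1ap at VILI 0 hours lost. The study lists the reads of each library, but with FPKM alone the number of reads behind a value is unknown. Having 3 libraries per group limits the precision.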
